A study of Laccaria bicolor with 4 samples.

Results

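In Laccaria bicolor mycelium, 249 of the 23125 annotated genes were expressed without treatment and uniformly lower after incubation with vitamin C. They were chosen by measured values, namely the TPM of all 4 libraries, a share of transcripts scaled by gene length. A gene was included when it had at least 5 TPM in both untreated libraries and was above 0 in both vitamin C libraries, and when its lower untreated value was at least 1.5 times its higher vitamin C value. In what follows, this ratio of the lower untreated to the higher vitamin C TPM is called the fold, and a pair of values gives replicates 1 and 2 in that order. Of all genes, 10167 reached 5 TPM in both untreated libraries and were above 0 with vitamin C, and could therefore meet the rule, and the 249 genes are 2.45% of these. Because the rule used the levels of every library, the direction and size of the differences below are descriptions and were not tested.

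The libraries came from the haploid monokaryotic strain S238N-H82 (Orton S238N-H82 in the labels), collected after 8 weeks in liquid culture. For 2 libraries the mycelium was left untreated, and for the other 2 it was kept in 5 mM vitamin C during 2 days. Stranded libraries were made from total RNA over 200 nt after removal of ribosomal RNA. The submitters describe the libraries of a condition as biological replicates, and no source says whether they came from separate flasks or days.

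L. bicolor is a basidiomycete that forms ectomycorrhiza, a symbiosis with tree roots in which hyphae trade soil nutrients for sugars. Vitamin C (ascorbate) is a reducing agent and keeps the iron of TET dioxygenases, which oxidize 5-methylcytosine, in its active ferrous state. It serves other iron-dependent dioxygenases in the same way, acts as an antioxidant, and can change the redox state of a culture. The gene tables carry identifiers without names. Of the 23125 identifiers, 0 occur among the RefSeq genes of the first assembly (V1.0), and no function is therefore given to any gene. They are described by position on the V2 genome, span, overlap with other gene models, neighbours and level. Span here is the distance from the first to the last base of a gene model, introns included.

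The lower genes were moderately expressed in untreated mycelium and about 2-fold lower with vitamin C. Their median TPM was 20.3 and 23.2 untreated, compared with 10.4 and 10.3 after vitamin C. Over all 10167 genes that could meet the rule, the medians were 28.9 and 32.7 untreated and 32.7 and 28.6 with vitamin C. Summed over the lower genes, the TPM made up 0.992% and 1.16% of the untreated libraries, against 0.504% and 0.525% of those with vitamin C. As TPM gives the share of a library and the mycelium was sequenced in bulk, less RNA per cell and fewer cells that express a gene cannot be told apart.

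Most of these genes lay close to the limit of the rule. The fold was under 2 for 216 of the 249 genes and at least 2 for 33 (13.3%), and it reached 3 for 9 genes. The median fold was 1.66 (interquartile range 1.57 to 1.84), and the median ratio of the mean untreated to the mean vitamin C TPM was 1.98. The share of lower genes was larger among weakly expressed genes, being 3.86% of genes with a mean untreated TPM under 10 and 1.32% of those at 100 or more. These classes rest on untreated values that the rule also used, and the lowest class borders its minimum of 5 TPM. No trait of the lower genes is therefore read from these shares. No gene with a mean untreated TPM of 1000 or more was included. Only 127 such genes could meet the rule, too few to read a lower share from. The higher replicate was a median of 1.14 times the lower one untreated and 1.11 times with vitamin C, and the rule itself favours genes with close replicates. The untreated libraries were at least 2-fold apart for 6 genes (2.41%, against 1.65% of all genes that could meet the rule). The vitamin C libraries were at least 2-fold apart for 4 (1.61%, against 0.639%), and 239 genes remained without any such gene.

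**Figure D1:**
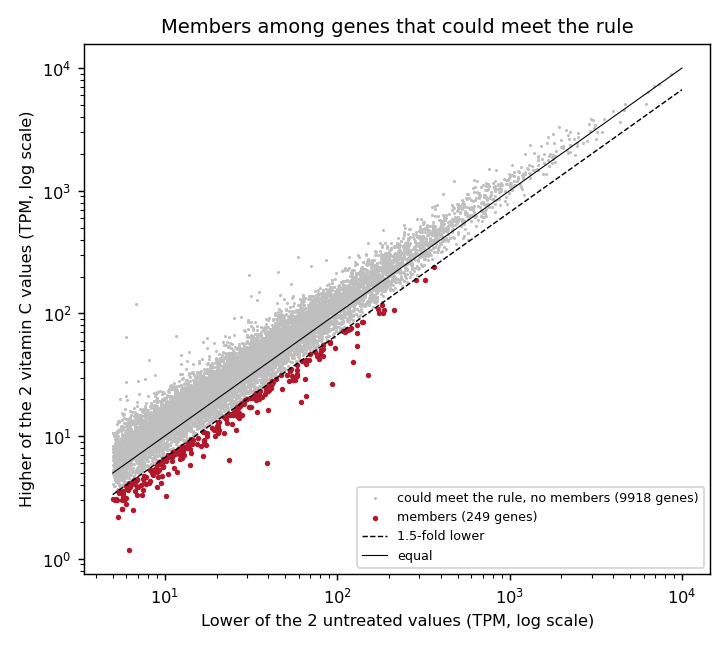
Each point is a gene with at least 5 TPM in both untreated libraries and above 0 with vitamin C, with its lower untreated TPM on the x axis and its higher vitamin C TPM on the y axis, both on log scales. The 249 lower genes (red) lie below the dashed line at 1.5-fold, most of them close to it, and the other genes are grey.

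The depth behind these values differed between libraries. Dividing coverage by FPKM gives the aligned bases, which were 4.20 and 4.40 Gb for untreated and 5.65 and 4.27 Gb for vitamin C libraries. The lower genes had a median coverage (read depth averaged along the exons) of 57.7 and 65.6 untreated and of 36.7 and 28.4 with vitamin C. The lowest coverage of any of them was 14.6 and 14.3 untreated, compared with 3.00 and 2.11 after vitamin C. The tables hold no read counts, so no counting interval is given.

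The count of lower genes was set beside the same rule applied to every other way of dividing the 4 libraries into pairs, as counts without a test. In the opposite direction, 67 genes were higher with vitamin C, 0.665% of those that could meet the rule there. Genes higher in both libraries numbered 1 than in both numbered 2 were 3 (0.0298%), and 2 (0.02%) were higher in both numbered 2. Genes higher in untreated replicate 1 and vitamin C replicate 2 than in the other libraries were 8 (0.0801%). However, 187 genes (1.83%) were higher in untreated replicate 2 and vitamin C replicate 1 than in untreated replicate 1 and vitamin C replicate 2, a division with no contrast of treatment. The split by treatment thus held the largest count of the 6 at this fold, and another pairing of libraries came close to it.

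These counts moved with the scaling of the libraries and with the fold. The median-ratio factors, the typical level of each library relative to the others, were 0.955 and 1.07 untreated and 1.06 and 0.938 with vitamin C, so that untreated replicate 2 and vitamin C replicate 1 stood together above the rest. With this level difference removed by median-ratio scaling, the lower genes were 230, those higher with vitamin C 87, and those higher in untreated replicate 2 and vitamin C replicate 1 only 54. Quantile normalization gave 221, 83 and 38, and removal of each library's trend with gene span gave 187, 97 and 54. The lower genes outnumbered the higher genes under each of these scalings, by a smaller margin than with TPM as deposited. At a fold of 2 the counts were 33 lower and 11 higher genes, with 8 in untreated replicate 2 and vitamin C replicate 1, and with a difference of 25% as the limit they were 801, 457 and 959, where the split without a treatment contrast held the largest count.

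**Figure D2:**
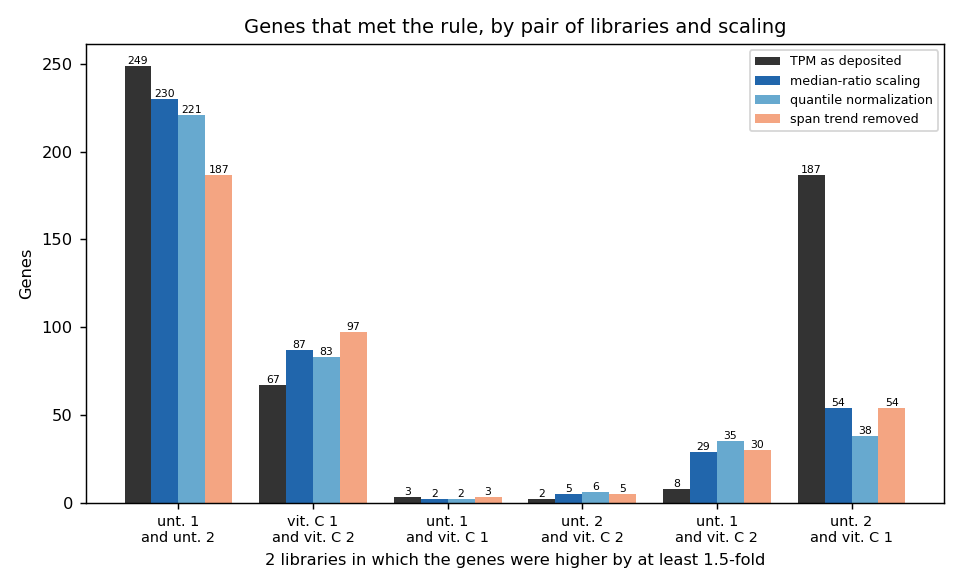
Bars give the number of genes (y axis) that met the rule at a fold of 1.5 for each pair of libraries in which they were higher (x axis), with TPM as deposited and under 3 other scalings. The pair of untreated libraries held 249 genes with TPM as deposited and 187 to 230 under the other scalings, while the pair of untreated 2 and vitamin C 1 went from 187 to between 38 and 54.

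Each library takes part in the rule, and leaving out 1 of them removes conditions and can only add genes. The count was 1046 without untreated replicate 1, 391 without untreated replicate 2, 494 without vitamin C replicate 1 and 451 without vitamin C replicate 2. Untreated replicate 1 therefore held back the most genes. Among the lower genes, 177 (71.1%) were higher in untreated replicate 2 than in untreated replicate 1, as were 65.6% of all genes that could meet the rule. Vitamin C replicate 2 was above vitamin C replicate 1 for 128 of the lower genes (51.4%), against 29.0% of all genes that could meet the rule. The rule limits the higher vitamin C value, most often that of replicate 1, and so itself favours genes that were low there. Nothing is read from this difference.

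The largest fold belonged to gene_1840 on linkage group 1, from 4229868 to 4232145 on the plus strand. It had 40.7 and 39.2 TPM without and 6.002 and 0.765 TPM with vitamin C, a fold of 6.53. Its untreated values were nearly equal, while its vitamin C values differed 7.85-fold. A longer gene model on the same strand, from 4229868 to 4233169, has the same start and covers it wholly. That model had 76.2 and 64.9 TPM without and 98.0 and 110 TPM with vitamin C. Added together, both models gave 117 and 104 TPM untreated and 104 and 111 TPM with vitamin C, values that overlap between conditions. Whether reads were divided differently between these models was not tested.

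In several of the other genes with the largest folds the untreated libraries stood far apart. A gene of 294 bp on linkage group 1 from 5972725 to 5973018 had 6.21 and 81.2 TPM without and 0.851 and 1.18 TPM with vitamin C. It overlaps 127 bp of a same-strand model that had 655 and 694 TPM without and 654 and 745 TPM with vitamin C. The vitamin C values of this gene are close to each other and its untreated values differ 13.1-fold, the widest spread among the lower genes. A gene on linkage group 3 from 1516176 to 1518350 had 152 and 670 TPM without and 26.2 and 31.5 TPM with vitamin C. A gene on linkage group 2 from 4660426 to 4662628 had 65.8 and 172 TPM without and 21.2 and 19.2 TPM with vitamin C. In all 3 of these the conditions do not overlap, as the rule requires, and untreated replicate 2 was the highest library.

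In other genes with large folds the untreated libraries were closer to each other. A gene on linkage group 4 from 1466981 to 1467897, overlapped by no other model, had 124 and 137 TPM without and 33.6 and 40.2 TPM with vitamin C, a fold of 3.09. Its neighbours did not share the difference, the nearer one standing at 218 and 264 TPM without and at 301 and 307 TPM with vitamin C. A gene on linkage group 9 from 1321191 to 1321726 had 61.6 and 82.4 TPM without and 19.0 and 18.8 TPM with vitamin C, a fold of 3.24. A gene on linkage group 2 from 4345412 to 4346308 had 23.8 and 25.7 TPM without and 4.18 and 6.38 TPM with vitamin C, a fold of 3.73, and its vitamin C libraries differed 1.53-fold. The gene just before it, from 4344434 to 4345051 on the same strand, was itself among the lower genes and had 39.7 and 42.1 TPM without and 16.5 and 16.2 TPM with vitamin C. Both genes thus had untreated values within a narrow range of each other and vitamin C values well below it.

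The remaining genes among the 12 largest folds differed widely in level. A gene on linkage group 10 from 1528289 to 1531218 had 92.8 and 181 TPM without and 17.9 and 26.5 TPM with vitamin C. Also on linkage group 10, a gene from 2888545 to 2889372 had 171 and 131 TPM without and 44.8 and 54.2 TPM with vitamin C. The latter lies wholly inside a longer model on the opposite strand that had 3.35 and 3.67 TPM without and 2.40 and 2.09 TPM with vitamin C. The weakly expressed ones lay on linkage group 1 from 5976766 to 5978091, on linkage group 6 from 793108 to 793482 and on scaffold 13 from 455489 to 455732. They had 5.40 to 10.3 TPM untreated and 2.00 to 3.28 TPM with vitamin C.

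**Figure D3:**
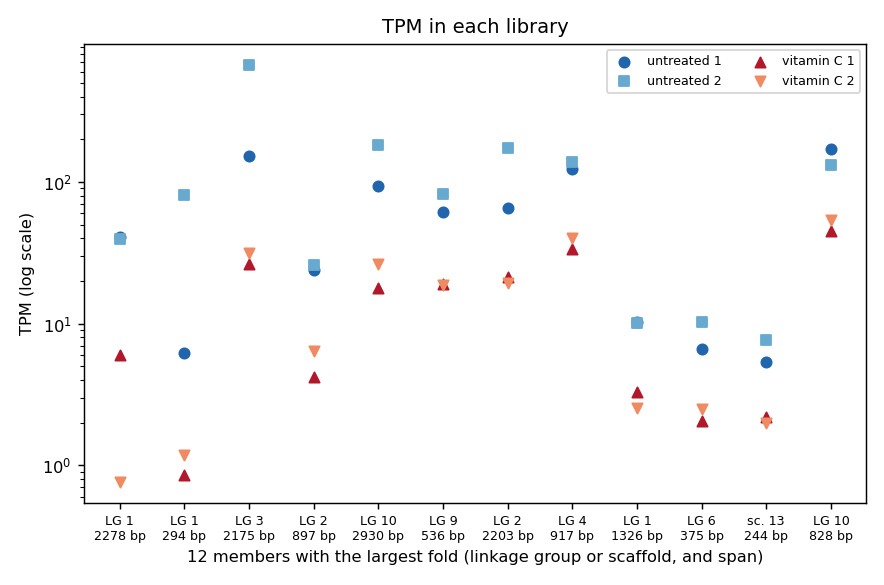
Points give the TPM (y axis, log scale) of the 12 lower genes (members) with the largest fold in each of the 4 libraries, ordered from the largest fold at left and labelled by linkage group (LG) or scaffold (sc.) and span. The vitamin C points lie below the untreated points in every gene, as the rule requires, and untreated 1 and 2 stand far apart in the second and the third gene from the left.

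The 8 lower genes with the highest mean untreated TPM had folds of 1.54 to 4.83. The highest mean untreated level was that of gene_1680, on linkage group 1 from 3863020 to 3863695, which had 324 and 501 TPM without and 188 and 166 TPM with vitamin C. On linkage group 2, a gene from 1558241 to 1558761 had 413 and 367 TPM without and 213 and 238 TPM with vitamin C. On linkage group 1, a gene from 4403167 to 4403807 had 330 and 288 TPM without and 157 and 188 TPM with vitamin C. These genes span 521 to 676 bp, and their folds were 1.72, 1.54 and 1.54. Next in level came a gene of 537 bp on scaffold 13 from 1029984 to 1030520, at 214 and 256 TPM untreated and 103 and 106 TPM with vitamin C, with close replicates and a fold of 2.02. A gene on linkage group 3 from 580468 to 581681 had 188 and 224 TPM without and 107 and 94.8 TPM with vitamin C. A gene on scaffold 14 from 760232 to 762394 had 184 and 203 TPM without and 101 and 97.4 TPM with vitamin C. Of the 8 genes with the highest mean untreated TPM, 1 is also among the 12 with the largest fold, the gene on linkage group 3 from 1516176.

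At the limits of the rule, genes inside and outside differed little. The genes just inside the fold lay on linkage group 4 from 4108707, linkage group 3 from 3686440 and scaffold 12 from 566825, with folds of 1.501, 1.501 and 1.501. Those just outside lay on linkage group 2 from 4494669, linkage group 9 from 596403 and scaffold 12 from 41921, with folds of 1.499, 1.499 and 1.499. The last of these had 73.5 and 82.1 TPM without and 36.2 and 49.1 TPM with vitamin C, and was thus left out by its higher vitamin C library. The condition of being above 0 with vitamin C left out 2 genes, both on linkage group 3 and both listed at 0 TPM in both vitamin C libraries, and an exact 0 in these tables can be a failed estimate.

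Gene models that lie almost wholly inside another model made up a larger share of the lower genes than of all genes that could meet the rule. Of the 249 genes, 58 (23.3%) overlapped another model by at least 1 bp, against 20.5% of all genes that could meet the rule. A single other model covered at least 90% of the span of 27 of them (10.8%), against 3.22%. Among the 33 genes with a fold of at least 2 these were 8 (24.2%), and among the 216 with a smaller fold 19 (8.80%). The lower genes were also shorter, as described below, and these shares were not matched for span. Where models share bases, reads can be assigned to either of them, and without the strand setting of the quantification even models on opposite strands cannot be kept apart. Reads were not analysed here, and the part of shared reads in these differences was not tested.

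The covering models differed in strand and level. The covering model lay on the opposite strand for 20 of the 27 genes and on the same strand for 7. Among all genes that could meet the rule and were covered in this way, it lay on the opposite strand for 227 of 327, a similar share. The gene on linkage group 9 from 1321191 had a partner on the opposite strand with 19.0 and 19.0 TPM without and 21.7 and 15.8 TPM with vitamin C. At a site on linkage group 1, the gene from 2750650 to 2751709 had 35.5 and 34.5 TPM without and 20.7 and 20.1 TPM with vitamin C. Its opposite-strand partner from 2750650 to 2751700 had 0.910 and 1.117 TPM without and 11.9 and 8.91 TPM with vitamin C, so that the sums, 36.4 and 35.6 against 32.6 and 29.0 TPM, lay close together. Of the 27 covering models, 5 were higher in both vitamin C than in both untreated libraries, 8 were lower and 14 overlapped between conditions. With the TPM of gene and covering model added together, 5 of the 27 sums kept a fold of at least 1.5. A further 18 had a fold between 1 and 1.5 and 4 a fold under 1, and the median was 1.27. No sum was higher in both vitamin C than in both untreated libraries. Without any overlapped gene, 191 lower genes remained.

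The lower genes had shorter spans than the genes that could meet the rule. Their median span was 1060 bp (interquartile range 664 to 1503 bp), against 1492 bp (911 to 2347 bp) over all genes that could meet the rule. Genes under 500 bp made up 16.1% of them, against 8.65%, and genes of 3000 bp or more made up 3.21%, against 15.3%. The share of lower genes was 5.01% in the shortest of 10 nearly equal classes, by span, of genes that could meet the rule (96 to 543 bp) and 0.492% in the longest class (3525 to 12943 bp). Short spans were found at every level, with medians of 1004 to 1096 bp in 5 classes of mean untreated TPM, although the genes that could meet the rule had medians of 1217 to 1604 bp in the same classes. Short spans at this fold were not particular to the lower genes. The 67 genes higher with vitamin C had a median span of 1084 bp. The genes that could meet the rule in that direction had a median of 1503 bp. With a difference of 25% as the limit, the 457 higher genes had a median of 1767 bp.

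The 4 libraries also differed from each other along gene span, and the size of this trend is given beside the result. In the shortest class of genes the median log2 ratio of vitamin C over untreated TPM, from the means of each condition, was -0.14, and in the longest class it was 0.21. Without the 249 genes these medians were -0.11 and 0.21, so the trend was present in genes that did not meet the rule. Replicates showed a trend as well, most clearly vitamin C replicates 1 and 2, whose median log2 ratio went from -0.10 in the shortest to -0.29 in the longest class. With each library's trend on span removed, 187 genes met the rule, of which 155 were among the 249, and their median span was 1292 bp. This step also removes the difference in level between libraries. The span of the lower genes thus moved towards that of all genes when the trend was removed. The 97 genes higher with vitamin C under this step had a median of 927 bp, below the 1292 bp given above. TPM is scaled by transcript length, and span differs from transcript length by the introns, which were not used here. The part of the trend in the result was not tested.

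**Figure D4:**
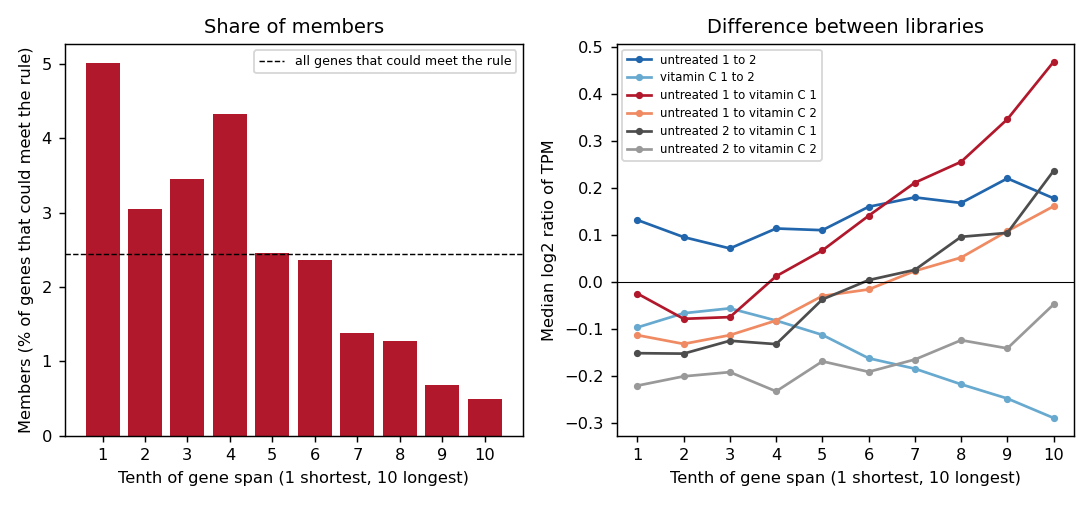
Left, bars give the lower genes (members) as a percentage of genes that could meet the rule (y axis) in each of 10 classes of gene span (x axis), with the overall 2.45% as a dashed line; the share goes from 5.01% in the shortest to 0.492% in the longest class. Right, lines give the median log2 ratio of TPM between each 2 libraries (y axis) in the same classes, and the ratios of vitamin C to untreated libraries are higher in the longest than in the shortest genes.

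The 3 shortest and the 3 longest of the lower genes all had a mean untreated TPM below the median of the lower genes, which was 21.2. The 3 shortest span 156, 159 and 168 bp and lie on linkage groups 1, 8 and 1. The shortest, from 7269928 to 7270083, had 9.26 and 9.16 TPM without and 4.66 and 3.33 TPM with vitamin C. The longest, of 4885 bp on linkage group 3 from 3452536 to 3457420, had 13.0 and 15.7 TPM without and 8.04 and 7.20 TPM with vitamin C. The other long ones, of 4710 bp on linkage group 2 from 102008 and of 4310 bp on linkage group 4 from 3056066, had folds of 1.85 and 1.62.

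Lower genes were found on every linkage group. Of the 249, 202 lay on the 10 linkage groups (81.1%, against 80.0% of all genes that could meet the rule) and the others on smaller scaffolds. Linkage group 1 had the most, 45 of 2163 genes that could meet the rule (2.08%), followed by linkage group 3 with 39 of 1588 (2.46%). The share was highest on linkage group 7 (11 of 328, 3.35%) and lowest on linkage groups 5 (3 of 239, 1.26%) and 8 (5 of 371, 1.35%). Of the scaffolds with over 100 such genes, scaffold 12 had 17 of 439 (3.87%), scaffold 13 had 8 of 226 (3.54%), scaffold 14 had 4 of 173 (2.31%), scaffold 19 had 3 of 134 (2.24%) and scaffold 11 had 8 of 530 (1.51%). Of those with 61 to 96 such genes, scaffold 18 had 3 of 65 and scaffold 17 had 2 of 64. Scaffolds 20, 16, 24 and 15 had 0 of 96, 75, 62 and 61. Few lay near the ends, 3 of 202 within 100 kb of the first base or of the end of the last gene of a linkage group (1.49%), against 2.82% of all genes that could meet the rule. The strands were used equally, with 127 of the 249 genes on the plus strand.

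Most lower genes stood alone, but some lay next to each other. In gene order 221 of them had no other lower gene beside them, and 28 lay in 13 runs, of which 11 held 2 genes and 2 held 3. A lower gene was the previous or next gene for 11.2% of the lower genes and for 3.40% of all genes that could meet the rule. The nearest gene was a lower gene for 4.42%, against 1.751%. Another lower gene started within 20 kb of 29.7% of them, against 21.0%. Genes are not independent replicates, and neighbours can share base composition or reads, so these shares are given without a test. The runs hold 15 adjacent pairs. Of these pairs 7 were divergent, with their starts facing each other, and 8 were in tandem on 1 strand. None was convergent or overlapping, against 19.1% and 10.9% of the 7005 adjacent pairs of genes that could meet the rule. With only 15 pairs, no preference of orientation is read from this.

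Both runs of 3 genes are compact. On linkage group 10, 3 genes from 2182819 to 2186788 were lower. The first, on the minus strand, had 9.18 and 6.88 TPM without and 2.64 and 3.34 TPM with vitamin C. The second, on the minus strand too, had 93.5 and 70.1 TPM without and 33.9 and 46.3 TPM with vitamin C. The third, on the plus strand and divergent from the second with 1 bp between them, had 6.89 and 6.96 TPM without and 2.96 and 4.42 TPM with vitamin C. In this run the middle gene was about 10 times as highly expressed as those beside it, and all had folds between 1.51 and 2.06.

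On scaffold 12, 3 neighbouring genes from 192131 to 195868 were lower. The first, of 1268 bp on the minus strand, had 131 and 159 TPM without and 57.4 and 80.9 TPM with vitamin C. The second, of 226 bp on the plus strand, had 9.64 and 17.3 TPM without and 4.71 and 4.57 TPM with vitamin C. The third, of 677 bp on the plus strand, had 10.4 and 12.8 TPM without and 3.62 and 4.87 TPM with vitamin C. The first and the second genes are divergent, and 665 bp lie between them. Scaffold 12 held 2 further runs, from 119926 to 122394 and from 369290 to 371415, each a divergent pair, with 207 and 636 bp between the genes. In the first of these pairs the values were 54.4 and 42.4 TPM untreated against 22.9 and 27.8 TPM with vitamin C, and 19.6 and 19.3 against 10.4 and 11.2 TPM. Among the genes in runs, those starting at 2185558 on linkage group 10, 2329841 on linkage group 3, 1727079 on linkage group 6 and 119926 on scaffold 12 are also among the 27 that lie at least 90% inside another model.

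Other divergent pairs showed lower values at unequal levels. On linkage group 6, a gene from 1727079 to 1728005 had 142 and 241 TPM without and 85.4 and 74.5 TPM with vitamin C. Its divergent neighbour, 111 bp away, had 23.8 and 30.0 TPM without and 15.2 and 15.1 TPM with vitamin C. On linkage group 3, the pair from 2328996 to 2331488 stood at 26.3 and 25.8 against 13.8 and 16.4 TPM and at 5.74 and 7.50 against 3.17 and 2.98 TPM. On linkage group 1, the pair from 5976766 to 5980039 stood at 10.3 and 10.1 against 3.28 and 2.53 TPM and at 6.55 and 11.1 against 4.17 and 3.86 TPM, with 601 bp between its genes. This last pair lies beside the gene of 294 bp described above, so that 3 of 4 genes over 7.32 kb were lower. The gene among them that did not meet the rule, from 5973186 to 5976596, had 19.8 and 27.2 TPM without and 23.0 and 12.8 TPM with vitamin C.

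The genes of the tandem pairs lay 54 to 1417 bp apart. On linkage group 7, the pair from 1071471 to 1073343 had 607 bp between its genes. Its first gene, of 366 bp, had 16.3 and 22.6 TPM without and 3.58 and 8.27 TPM with vitamin C, so that the vitamin C libraries were over 2-fold apart. A second pair on the same linkage group, from 1775701 to 1779348, stood at 7.57 and 9.78 against 4.52 and 4.10 TPM and at 12.4 and 19.1 against 6.92 and 7.00 TPM. On scaffold 18, the pair from 74238 to 79789 included a gene at 25.8 and 69.4 TPM untreated and 11.1 and 9.81 TPM with vitamin C. Between the genes of the tandem pair on linkage group 3 from 3452536 lie only 54 bp, and this pair joins the longest of the lower genes to one of 219 bp.

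Genes beside the lower genes that did not meet the rule differed little between conditions. The neighbours considered had a mean of at least 5 TPM over the 4 libraries and were above 0 in each. The first gene upstream had a median log2 ratio of vitamin C over untreated TPM of -0.07 (interquartile range -0.32 to 0.12, 162 genes), and the first gene downstream -0.04 (-0.33 to 0.21, 166 genes). Beside other genes that could meet the rule the medians were 0.00 and 0.00. At 2 to 5 genes away the medians around the lower genes lay between -0.05 and 0.01. The upstream neighbour was lower with vitamin C for 57.4%, against 50.3% beside the other genes. These medians are small beside the log2 difference of the lower genes themselves, whose median was -0.99.

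**Figure D5:**
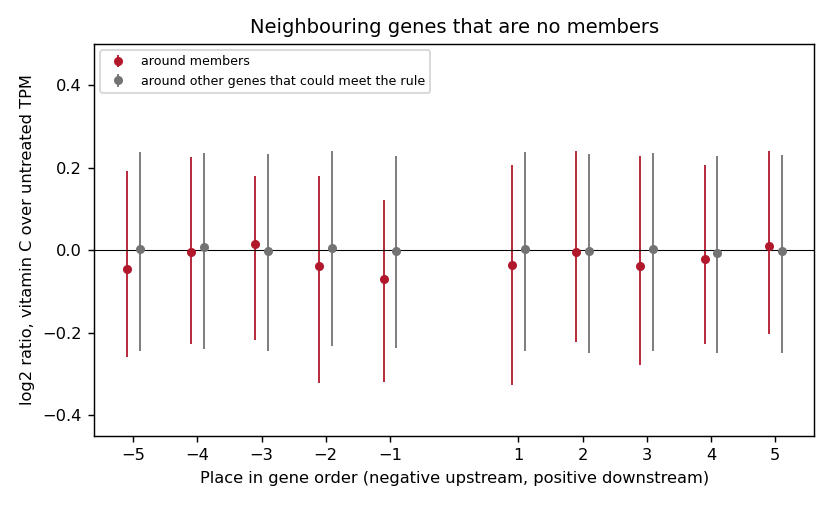
Points give the median log2 ratio of vitamin C over untreated TPM (y axis) of neighbouring genes that did not meet the rule, by place in gene order relative to the strand of the central gene (x axis), and lines give the interquartile range. Around the lower genes (red) the medians lie between -0.07 and 0.01, and around other genes that could meet the rule (grey) they lie within 0.01 of 0.

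The distances and orientations of neighbours are given beside those of all genes that could meet the rule. The median distance to the upstream neighbour was 433 bp and to the downstream neighbour 346 bp, against 375 and 314 bp. The upstream neighbour pointed away from the gene, in divergent orientation, for 61.0% of them, against 55.8%. At least 1 neighbour was not expressed in untreated mycelium (mean TPM of 0.05 or less) for 27 of the 249 genes (10.8%), against 13.8%, and both were not expressed for 3 genes (1.20%), against 1.39%.

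The fit across all genes called few of the lower genes. Of 15107 genes tested with limma on log2(TPM + 1), 7 (0.0463%) had an adjusted p under 0.05 and a lower level with vitamin C, and 2 of these are among the 249. They are the gene on linkage group 4 from 1466981 and the gene on linkage group 9 from 1321191, both described above. The others did not pass, among them gene_1840. Since the same libraries chose the genes, nothing is read from the number called. It was 6 with genes under a mean of 1 TPM left out, where 11 of the 13196 genes tested were called lower. With any 1 library left out, 1 condition rested on a single library, and calls from those fits are not given.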

How the data were processed

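RNA-seq of 2 untreated and 2 vitamin C-treated L. bicolor mycelium libraries was analysed, grouped by the sample titles. After quality checks (FastQC) and trimming (BBDuk), the authors mapped reads to the V2 genome with hisat2, removed duplicates (samtools markdup 1.12) and ran StringTie 2.0.3. The deposited TPM sum to the same total in each library. The deposited FPKM are scaled by gene length and aligned bases, and the coverage signal the authors deposited is unscaled read depth. No source used here gives the strand setting of StringTie.

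The rule was applied to TPM of genes matched by identifier. The members and lists were chosen with earlier results of these data known. TPM are not counts, so limma 3.58.1 (R 4.3.3, trend, Benjamini-Hochberg) was fitted to log2(TPM + 1) over 15107 genes with a mean TPM above 0.05, and tested on simulated data. P-values measure only the spread between these libraries. Genes described singly were the 12 largest folds, the 8 highest mean untreated TPM, runs, the 3 nearest each side of the fold, and the 3 longest and 3 shortest, with 2 identifiers printed since no table pairs them with names. Other genes given with values are partners, neighbours or examples chosen after their values were seen. Alternatives changed the fold, minimum, unit, scaling, span trend, pairing, pseudocount, filter and libraries. Median-ratio scaling divides each library by the median ratio of its genes to their geometric mean, and the span trend was a lowess fit (fraction 0.3) on log2 span. Python 3.11.15, numpy 2.4.6, pandas 2.3.3, statsmodels 0.14.6 and matplotlib 3.10.9 were used.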

Additional observations from a re-analysis of the deposited data

How the results depend on the processing

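The count of 249 lower genes became 801 at a difference of 25%, 33 at a fold of 2 and 397 with a minimum of 1 TPM, settings that widen or narrow the rule by construction, and it ranged from 391 to 1046 with 1 library left out. It stayed within 1.5 times, at 182 to 280, with a minimum of 10 TPM, genes at 0 included, FPKM and the other scalings, where 176 to 204 of the 249 genes remained under FPKM, median-ratio scaling and quantile normalization and 155 with the span trend removed. The median span of 1060 bp became 906 bp at a fold of 2 and 1292 bp with the span trend removed, and ranged from 969 to 1096.5 bp with 1 library left out. The share with a lower gene as nearest gene, 4.42%, became 8.36% at a difference of 25%. At that setting 801 genes, 7.88% of those that could meet the rule, were lower. The share ranged from 4.35% to 10.3% with 1 library left out, the highest without untreated replicate 1, where 1046 genes were lower. A larger set of lower genes raises this share by itself. The share over all genes was not computed at these settings, so no closer grouping is read from them. The share overlapped, 23.3%, became 33.3% at a fold of 2, where 33 genes are left. For these the cause was not tested.

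The 2 limma calls, among 7 of all 15107 genes tested, became 6 among 11 of 13196 when genes under a mean of 1 TPM were left out. With quantile normalization 1 was called, among 5 of 15091. Of the 249 genes, 0 were called without a filter or without the trend, where 3 of all genes were called lower in each fit. The cause was not tested. Fits with 1 library left out rest on a single library in 1 condition, and their calls are not given. Both conditions use replicate numbers 1 and 2, and nothing says that equal numbers mark a shared flask or day. Across genes the replicate differences of untreated and vitamin C mycelium had a correlation of -0.26, so the numbers were not taken as pairing samples. The replicate block gave 30 calls, among 85 of all 15107 genes, and comparing only libraries of the same number gave 345 lower genes. The crossed pairing, chosen after seeing the data, gave 132 calls, among 225 of all 15107 genes, and 406 lower genes. These block fits rest on few residual degrees of freedom. The scalings of the other pairs of libraries and the removal of overlapped genes or of genes with distant replicates were also chosen after seeing the data.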
